A study of Homo sapiens with 2 samples.

Results

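Septins are GTP-binding proteins of the cytoskeleton, and the 10 genes SEPTIN2 to SEPTIN11 of this family were followed in ovarian carcinoma cells in which the transcription factor RUNX2 had been knocked down. The members are all genes of these names, and they are 10 of the 17240 genes that could be named on the arrays. The arrays carry 22 probes for them, between 1 and 3 per gene. SKOV3 is an established human ovarian adenocarcinoma cell line. The clone cl-sh3 was made by lentiviral transduction with a RUNX2 shRNA in the pLKO.1-puro vector, and the control (mock-transfected) clone carried the same vector with a scrambled sequence. Both were selected with puromycin and each is 1 clone, so a difference between them cannot be told apart from a difference between any 2 clones of the line. RNA of both clones was labelled with Cy3 or Cy5 and hybridized to the same Agilent whole human genome array, with cl-sh3 in Cy5 in hybridization 1 and in Cy3 in hybridization 2.

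The 2 hybridizations repeat 1 pair of RNAs on 1 slide and count as 1 replicate. There is accordingly no test between the clones, both hybridizations are shown for every septin probe, and their spread is technical error alone. Most markers and the chromosome neighbours are given by their mean ratio over both hybridizations. Intensities are normalized scanner units of 1 RNA on 1 probe, and ratios are log2 of cl-sh3 over control, so that 1 means 2-fold higher in cl-sh3 and -1 means 2-fold lower. A probe was kept when at least 1 of the RNAs was well above background in both hybridizations, and it was called changed when the ratio was at least 2-fold in the same direction in both. Since each probe binds with its own strength, intensities are compared between the RNAs on 1 probe and never between probes.

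Septin subunits from several sequence groups line up in a fixed order into rods, which join end to end into filaments, rings and bundles next to the membrane, actin and microtubules. SEPTIN2, SEPTIN6, SEPTIN7 and SEPTIN9 represent the groups that build these rods, and members of a group can often stand in for each other. Septins are best known for the ring at the cleavage furrow, where they help the daughter cells to separate, and they also act in cell migration, cell polarity and the base of the cilium. SEPTIN9 has many isoforms and is known in cancer for gene amplification and for raised levels in several carcinomas.

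In cl-sh3, the clearest differences among the septins ran in opposite directions. SEPTIN9 was higher and SEPTIN10 was lower than in the control clone, each past the 2-fold rule on 1 of its 2 probes. SEPTIN7, a core subunit of the filaments, was lower on all 3 of its probes without reaching 2-fold. SEPTIN2 was clearly lower on 1 of 3 probes. The remaining septins stayed close to the control, with mean ratios from -0.26 to 0.11.

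RUNX2 itself was lower in the clone labelled as its knockdown. Its brightest probe, A_32_P161762, gave 658 in cl-sh3 against 2698 in the control in hybridization 1, and 839 against 2073 in hybridization 2. The ratios were -2.04 and -1.30 with a mean of -1.67, which is 3.18-fold lower. The other RUNX2 probes, A_24_P69267 at 0.17 and -0.13 and A_32_P148058 at -0.29 and -0.17, did not show a decrease of that size. Among the markers of ovarian carcinoma cells, all 7 were measured. The cytokeratins KRT7, KRT8, KRT18 and KRT19, the adhesion protein EPCAM and the tight junction protein CLDN4 were higher in cl-sh3 in both hybridizations, at means from 0.37 to 0.83, and the receptor ERBB2 was lower at -0.86 and -0.45. Of 16 markers of fibroblasts, leukocytes, endothelial cells and neurons, 12 passed the filter on background, 3 did not and 1 was not matched, and the mean ratios of the 12 ran from -0.15 to 0.18. By their brightest kept probe, none of the 19 marker genes measured met the 2-fold rule. That count says little, since 0.122% of all kept probes were 2-fold higher and 0.394% were 2-fold lower. By direction alone, 29.8% of all kept probes were higher in both hybridizations and 27.2% were lower. The part of the markers in the septin results was not tested.

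Of the 22 septin probes, 19 were kept and 3 did not pass the filter on background. One probe was at least 2-fold higher in both hybridizations, where 0.122% of all 36065 kept probes met that rule, and 1 was at least 2-fold lower, where 0.394% did. Direction alone was shared by both hybridizations for 6 higher probes, against 29.8% of all kept probes, and for 8 lower probes, against 27.2%. In the other 5 the hybridizations disagreed in sign. The median of the 19 mean ratios was -0.03, against 0.01 over all kept probes. Of the 19 mean ratios, 13 lay within 0.5 of 0, where 90.5% of all kept probes lay. The hybridizations differed by a median of 0.19 on the septin probes and 0.22 on all kept probes, and in 8 septin probes the SD over the hybridizations exceeded the size of the mean ratio. By gene, all kept probes were higher in both hybridizations for SEPTIN3 and SEPTIN9, and lower in both for SEPTIN7, SEPTIN10 and SEPTIN11. For SEPTIN3 and SEPTIN11 this rests on 1 kept probe each. The share of all genes with 1 direction on every kept probe was not counted, except for genes with 3 kept probes all lower, given below. SEPTIN2, SEPTIN4, SEPTIN5, SEPTIN6 and SEPTIN8 had at least 1 probe whose sign differed between the hybridizations.

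**Figure D1:**
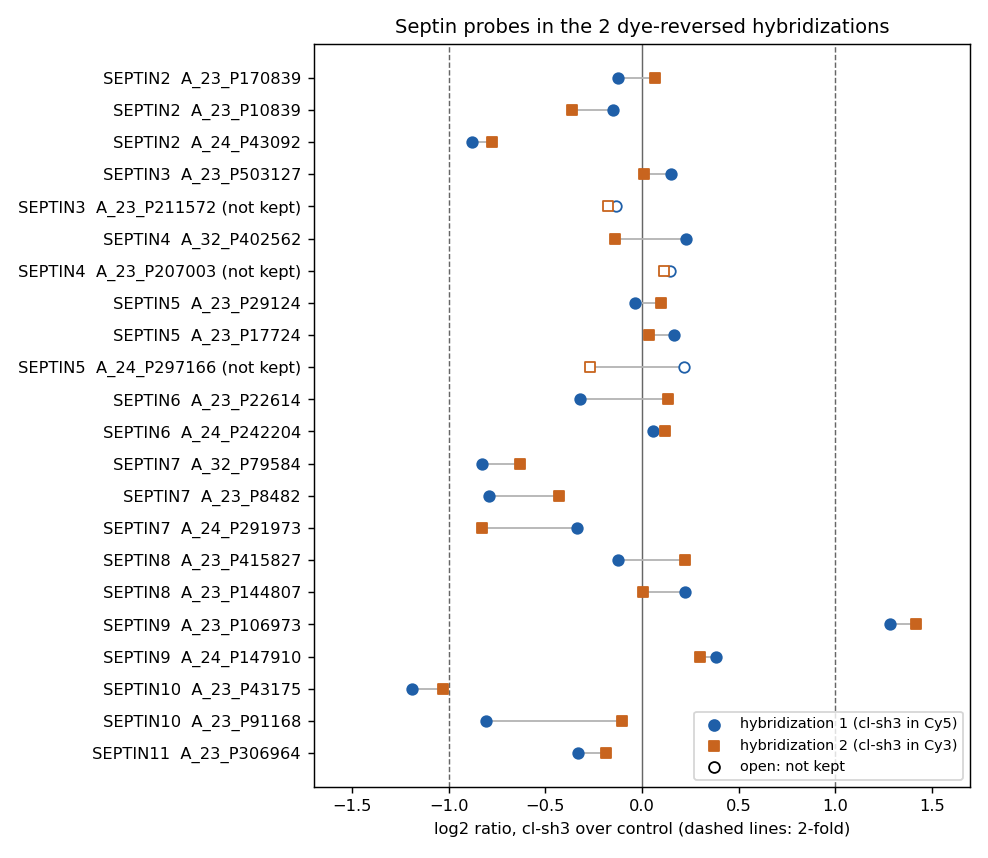
Log2 ratio of cl-sh3 over control on the horizontal axis for each of the 22 septin probes, with hybridization 1 as blue circles and hybridization 2 as orange squares, joined by a line. Open symbols mark the 3 probes that did not pass the filter on background, and dashed lines mark 2-fold. SEPTIN9 A_23_P106973 lies right of the upper line and SEPTIN10 A_23_P43175 left of the lower line in both hybridizations, and the 3 SEPTIN7 probes lie between 0 and the lower line.

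SEPTIN9, of the SEPTIN3 group, is the subunit that sets the longer septin rods apart from the shorter ones. Its probe A_23_P106973 read 102062 in cl-sh3 and 41894 in the control in hybridization 1. In hybridization 2 the same probe read 117694 in cl-sh3 and 43962 in the control. Both cl-sh3 signals lay above both control signals, by a wide margin against the difference between hybridizations. These are technical readings of 1 pair of RNAs. The share of all kept probes whose signals separate in this way was not counted, here or for the probes below. The log2 ratios were 1.28 and 1.42, a mean of 1.35 ± 0.10 (SD, 2 hybridizations of 1 replicate), or 2.55-fold higher. Counting this probe, 22 of all 36065 kept probes had a mean ratio at least as high. By the software's flags, the intensities of this bright spot were read in both dyes and both hybridizations from a scan at low gain and scaled up. The spot was not saturated.

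The second SEPTIN9 probe, A_24_P147910, is assigned to the same transcript accession and showed a smaller difference. It read 288 in cl-sh3 against 221 in the control in hybridization 1, and 273 against 222 in hybridization 2. The ratios were 0.38 and 0.30 with a mean of 0.34 ± 0.06. The signals of this second probe were low, and its ratio depended on the treatment of background. Its mean was 0.23 without background correction and 0.45 with the scanner software's ratio. By the reported processing the probes differed by 1.01 in mean ratio. Of the 5566 genes with 2 or more kept probes, 71 (1.28%) had a range at least that wide, and the median range was 0.19. The probe sequences were not used here, so which SEPTIN9 isoforms each probe reads is not known.

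SEPTIN3, the other member of that group among the 10 genes, is found mainly in neurons. It was close to background, with 1 probe kept and 1 not. The kept probe A_23_P503127 gave ratios of 0.15 and 0.01.

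SEPTIN10, of the SEPTIN6 group, is a less studied member that can take the place of SEPTIN6 in filaments. Its probe A_23_P43175 read 14886 in cl-sh3 and 33999 in the control in hybridization 1, and 13974 and 28512 in hybridization 2. Both control signals lay far above both cl-sh3 signals. The ratios were -1.19 and -1.03, a mean of -1.11 ± 0.12, or 2.16-fold lower. This was among the lowest 169 of the 36065 kept probes. The low-gain scan was used for the control in both hybridizations and for cl-sh3 in hybridization 1 alone, and the part of the scan in the ratios was not tested.

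The call on SEPTIN10 lay close to the threshold. With each array centred on its median in place of the intensity-dependent loess fit, the ratios of A_23_P43175 were -0.99 and -0.97 and the probe no longer met the 2-fold rule. The SEPTIN9 probe did so under every setting tried. The second SEPTIN10 probe, A_23_P91168, read 544 in cl-sh3 against 952 in the control in hybridization 1, but 611 against 657 in hybridization 2. It was lower in cl-sh3 both times, at -0.81 and -0.10, and this gap of 0.70 between hybridizations was the widest of any kept septin probe and above the 95th percentile over all kept probes, 0.63.

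**Figure D2:**
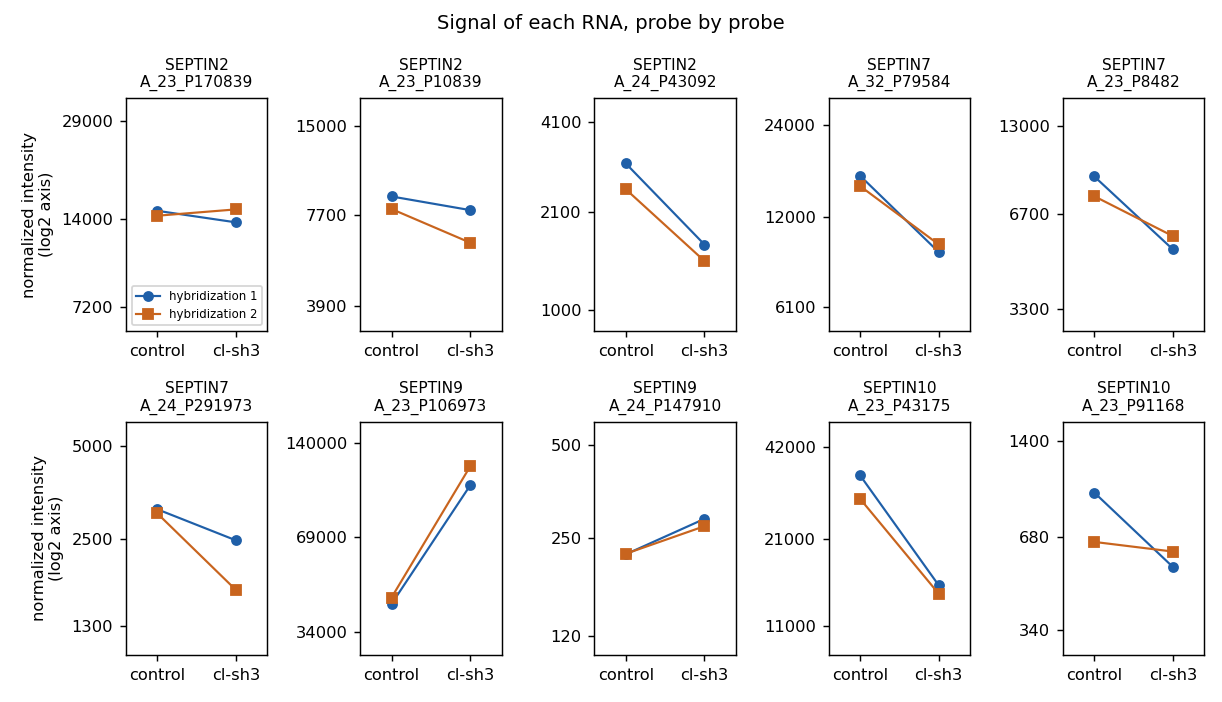
Normalized intensity of the control and cl-sh3 RNA on a log2 axis, 1 panel per probe of SEPTIN2, SEPTIN7, SEPTIN9 and SEPTIN10, with a blue line for hybridization 1 and an orange line for hybridization 2. Each panel spans the same fold range around its own mean, so slopes can be compared but heights cannot. The line rises most on SEPTIN9 A_23_P106973 and falls most on SEPTIN10 A_23_P43175, and it falls in both hybridizations on every SEPTIN7 panel.

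The rest of the SEPTIN6 group among the 10 genes differed little between the clones. SEPTIN11, a close relative of SEPTIN6, had 1 probe, A_23_P306964, which read 1445 in cl-sh3 against 1821 in the control and then 1728 against 1967. Its ratios were -0.33 and -0.19. SEPTIN6, the namesake of the group, had A_23_P22614 at -0.32 and 0.14 and A_24_P242204 at 0.06 and 0.12, so its probes give no shared direction. SEPTIN8 was similar, with A_23_P415827 at -0.12 and 0.22 and A_23_P144807 at 0.22 and 0.00. Over the 7 kept probes of the group, 2 were higher in both hybridizations, 3 were lower and 2 disagreed, with a median mean ratio of -0.09. The 3 lower probes are those of SEPTIN10 and SEPTIN11.

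SEPTIN7 is the only member of its group and is part of nearly all septin rods. Its probe A_32_P79584 read 9224 in cl-sh3 and 16369 in the control in hybridization 1, and 9768 and 15144 in hybridization 2. A_23_P8482 read 5145 and 8904, then 5688 and 7673, and A_24_P291973 read 2470 and 3118, then 1701 and 3024. On each of the 3 probes, both cl-sh3 signals lay below both control signals. The ratios were -0.83 and -0.63 for A_32_P79584, -0.79 and -0.43 for A_23_P8482, and -0.34 and -0.83 for A_24_P291973. No probe reached 2-fold. The 3 mean ratios were -0.73, -0.61 and -0.58, a range of 0.15 where the median range over genes was 0.19. Of the 965 genes with 3 kept probes, 120 (12.4%) had all 3 lower in both hybridizations.

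SEPTIN7P2 is a near-identical copy of SEPTIN7, and 3 of its 4 probes were kept. They were lower in cl-sh3 as well, at -0.75 and -0.55, -0.75 and -0.64, and -0.59 and -0.41. Transcripts of the gene and of its copy may bind each other's probes, so the SEPTIN7 and SEPTIN7P2 values cannot be read as separate measurements. How much of each signal comes from the copy was not tested. SEPTIN7P11, another copy with 1 kept probe, was not lower, at 0.13 and 0.04.

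Among the 10 genes, the SEPTIN2 group holds SEPTIN2, which is found in most cells, together with SEPTIN4 and SEPTIN5, known for roles in sperm and in neuronal secretion. The 3 SEPTIN2 probes gave different values although they are assigned to 1 transcript accession. A_24_P43092 read 1639 in cl-sh3 and 3013 in the control in hybridization 1, and 1449 and 2483 in hybridization 2, a mean ratio of -0.83 ± 0.07. A_23_P170839 read 13602 and 14834, then 14993 and 14297, with ratios of -0.13 and 0.07. A_23_P10839 lay between them, at -0.15 and -0.36. The range of 0.80 over the SEPTIN2 probes was matched or exceeded by 188 of the 5566 genes with 2 or more kept probes (3.38%). A level of SEPTIN2 as a whole therefore depends on the probe, from almost no difference to 1.78-fold lower.

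SEPTIN4 had 1 kept probe, A_32_P402562, at 0.23 and -0.14, and 1 below background. SEPTIN5 had kept probes at -0.04 and 0.10 (A_23_P29124) and at 0.17 and 0.04 (A_23_P17724), the latter above background in the control in 1 hybridization only, and another probe that was not kept, since each RNA was above background in only 1 hybridization. The SEPTIN2 group among the 10 genes had 1 probe higher in both hybridizations, 2 lower and 3 that disagreed, with a median mean ratio of 0.00. Outside the 10 genes, SEPTIN1, known from lymphocytes, was not kept, SEPTIN12 of the testis gave -0.08 and -0.09, and SEPTIN14 gave -0.20 and 0.07.

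**Figure D3:**
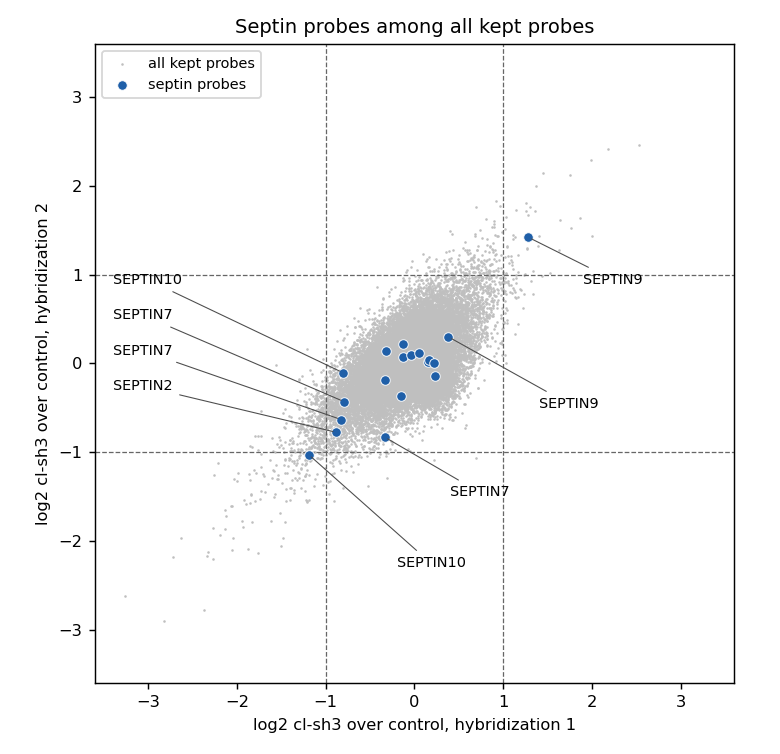
Log2 ratio of cl-sh3 over control in hybridization 1 (horizontal) against hybridization 2 (vertical) for all 36065 kept probes in grey and the 19 kept septin probes in blue, with 2-fold as dashed lines and the probes of SEPTIN2, SEPTIN7, SEPTIN9 and SEPTIN10 that stand apart labelled. SEPTIN9 A_23_P106973 lies in the sparse upper right corner with 22 probes at or above its mean, SEPTIN10 A_23_P43175 sits just past the lower left corner, and most septin probes lie inside the cloud.

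The start sites of SEPTIN9 and SEPTIN10 are shown because their probes met the 2-fold rule and because the regions upstream hold letters that RUNX proteins are known to bind. The sequences are the 250 bases before the most upstream listed start, from RefSeq on GRCh38.p14. They lie at chr17:77281249-77281498 on the plus strand for SEPTIN9, which has 10 listed starts, and at chr2:109613967-109614216 on the minus strand for SEPTIN10, which has 1. Capitals mark the match.
SEPTIN9: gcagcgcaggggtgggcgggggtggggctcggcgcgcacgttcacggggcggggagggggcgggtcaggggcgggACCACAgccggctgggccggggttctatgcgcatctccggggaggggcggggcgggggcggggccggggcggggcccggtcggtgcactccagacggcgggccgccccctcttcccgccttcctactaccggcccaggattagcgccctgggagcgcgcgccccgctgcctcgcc
SEPTIN10: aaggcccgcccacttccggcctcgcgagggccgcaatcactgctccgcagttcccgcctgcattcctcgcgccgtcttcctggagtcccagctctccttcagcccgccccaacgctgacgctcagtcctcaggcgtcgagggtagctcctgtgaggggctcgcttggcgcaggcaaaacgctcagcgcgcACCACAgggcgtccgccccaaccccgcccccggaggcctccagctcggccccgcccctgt

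The letters searched were TGTGGT and TGCGGT on both strands, so that ACCACA is the first of them read on the other strand. Counted from the start site, the match begins at base -175 in SEPTIN9 and at base -60 in SEPTIN10. Windows were listed for 8 of the 10 septins, namely all but SEPTIN3 and SEPTIN5, and 2 of these 8 held a match. Among all 27305 genes with a window, 4442 (16.3%) held one. The 2 matches thus lie upstream of a septin that was higher and of one that was lower in cl-sh3. A match of letters is a description, and binding was not measured here.

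Genes next to the septins on the chromosome lay near the control level by their medians. The 5 nearest measured coding genes on each side of SEPTIN9 had mean ratios from -0.40 (METTL23) to 0.42 (TK1), with a median of 0.03, against 1.35 for SEPTIN9. Around SEPTIN10 they ran from -0.59 (RGPD5) to 0.39 (MALL), with a median of -0.12, against -1.11. Around SEPTIN7 the range was wider than the difference of the gene itself at its lower end, from -0.76 (RP9) to 0.30 (DPY19L1), with a median of 0.00 against -0.73.

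Genes for proteins that bind or regulate septins lay on both sides of the control. All 12 genes of a list of septin partners were measured, and none met the 2-fold rule in either direction, a count that says little where only 0.122% and 0.394% of all kept probes did. Of the 12, 6 were higher in cl-sh3 in both hybridizations and 2 were lower, against 29.8% and 27.2% of all kept probes. Their median ratio was 0.15, against 0.01 over all kept probes. Each partner is given by its brightest kept probe, while the shares and the 0.01 cover every kept probe, so these are unlike measures. The members at both ends belong to the CDC42 effector (Borg) family, whose proteins bind septins and organise their filaments under the GTPase CDC42. The list also holds CDC42EP1, CDC42EP2 and CDC42EP4 of this family, whose ratios differed in sign between the hybridizations. CDC42EP5 was the highest, at 0.71 and 1.06, and CDC42EP3 the lowest, at a mean of -0.79, with 2927 in cl-sh3 against 5836 in the control in hybridization 1 and 3548 against 5314 in hybridization 2. With median centring 6 partners were higher and 1 lower, and with the scanner software's ratio 9 and 2. The shares of all kept probes by direction under these settings were not counted. SORBS2, an adaptor of the actin cytoskeleton, gave 0.35 and 0.84, and CDC42EP2 gave -0.51 and 0.02.

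Septins work at the cleavage furrow together with the contractile ring. Of 20 genes of cytokinesis, all measured, none met the 2-fold rule, again beside 0.122% and 0.394% of all kept probes. In both hybridizations 9 were higher and 3 were lower, against 29.8% and 27.2%, with a median of 0.07. Here too each gene is given by its brightest kept probe, while the shares cover every kept probe. With median centring 13 were higher and 1 was lower, and the median was 0.20, against 0.03 over all kept probes. The shares of all kept probes by direction under that scaling were not counted, so these counts have no background. By the reported processing, MYH9, the heavy chain of non-muscle myosin, was the highest, at 0.39 and 0.47, followed by VPS4A, which acts in the final cut between daughter cells, at 0.49 and 0.12. CEP55, a protein of the midbody, was the lowest and the most even between hybridizations of these, at -0.46 and -0.47. ROCK1, a kinase that activates myosin, gave -0.35 and 0.13.

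**Figure D4:**
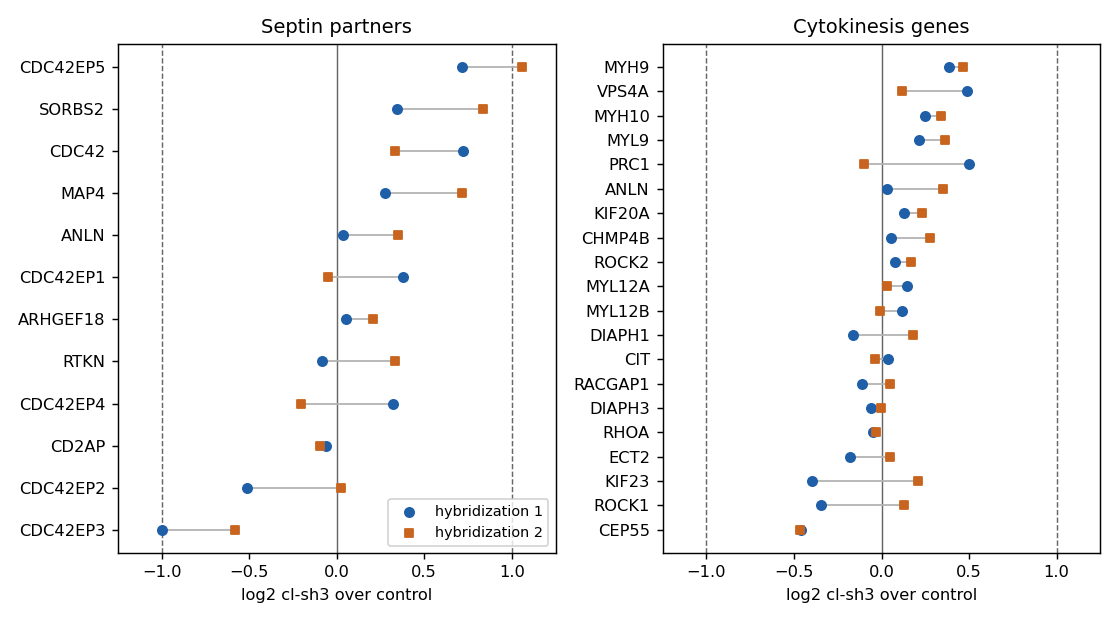
Log2 ratio of cl-sh3 over control for the 12 septin partners (left) and the 20 cytokinesis genes (right), each by its brightest kept probe and sorted by the mean, with hybridization 1 as blue circles and hybridization 2 as orange squares. Dashed lines mark 2-fold. No gene lies past a dashed line in both hybridizations, CDC42EP5 and CDC42EP3 lie at the 2 ends of the partners, and the cytokinesis genes lie between -0.46 and 0.43 by their means.

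The septin ratios were compared under each processing alternative, and each hybridization taken alone counts among these alternatives. The alternatives for the filter on background change only which probes are kept and leave the ratios as they were. The SEPTIN9 ratio of A_23_P106973 stayed between 1.28 and 1.55, and the SEPTIN10 ratio of A_23_P43175 between -1.19 and -0.98. SEPTIN7 stayed below 0 on all 3 probes under all of them, from -0.83 to -0.34. The values 1.28 and -1.19 and both ends for SEPTIN7 come from 1 hybridization alone, not from a change of processing. In all, 14 of the 19 kept septin probes had 1 sign under every alternative. The other 5, on SEPTIN2, SEPTIN4, SEPTIN5, SEPTIN6 and SEPTIN8, are those whose hybridizations disagreed in sign. These 5 had to change sign, because each hybridization alone is among the alternatives. The 14 had to keep theirs in those alternatives, since both hybridizations already shared it. The count of 14 thus repeats in part the count of probes with a shared direction.

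**Figure D5:**
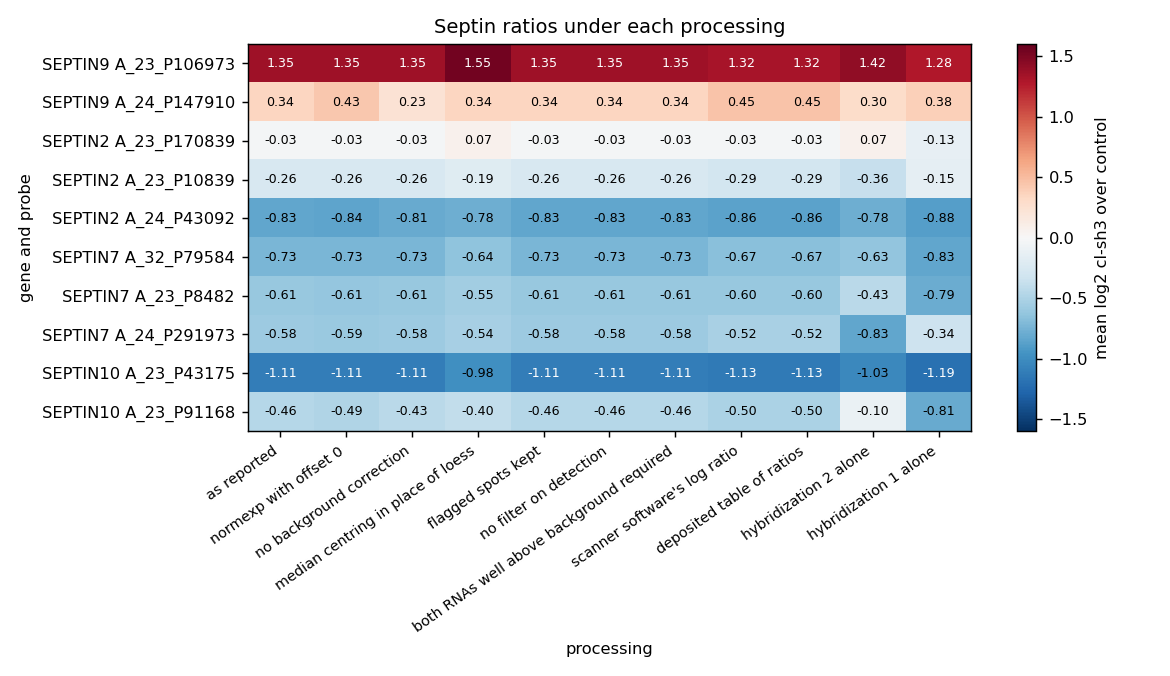
Mean log2 ratio of cl-sh3 over control, as colour and number, for the 10 probes of SEPTIN2, SEPTIN7, SEPTIN9 and SEPTIN10 (rows) under the reported processing and 10 alternatives (columns). Red is higher in cl-sh3 and blue is lower. Both SEPTIN9 rows are red and all SEPTIN7 and SEPTIN10 rows are blue throughout, SEPTIN10 A_23_P43175 reads -0.98 with median centring, and SEPTIN2 A_23_P170839 changes sign.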

How the data were processed

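Total RNA of cl-sh3 and of the control clone was compared in 2 hybridizations with reversed dyes, 1 replicate. The authors deposited unnormalized median pixel intensity values of every spot with local backgrounds and flags, read with Agilent Feature Extraction (10.5.1.1 per the file headers, 8.5.1.1 per the submitters' processing notes). Red over green log10 ratios, which that software had corrected for background and dye, were deposited too, and so was a table of these log10 ratios that equals it to within 0.00500, with column medians of 0.0108 and 0.

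Each array held 45015 spots, 1639 of them controls, and 41000 probes, of which 36065 were kept. Spots well above background made up 77.3% to 93.9% per channel, and 0 spots were saturated. The limma package (3.58.1, R 4.3.3) supplied the normexp background correction, with an offset of 50, and the loess fit within each array. Control spots were dropped between these steps and outlier-flagged spots (153 and 144) were left out. Single-RNA signals followed Aquantile and include the offset. A probe's RNA was above background when at least 50% of its spots carried the software's flag. On simulated data for this comparison with 41000 probes, 197 of 200 changed probes were recovered and 0 others were called. The planted ratios were all well past 2-fold and lay on bright probes alone, and no other probe had a planted change. High recovery was thus built into the setting, and the counts do not measure recovery in the real data. They are not split by the size of the ratio. Recovery close to the 2-fold threshold, where the SEPTIN10 call lay, was not tested. Counts and lists were made in Python 3.11.15 (pandas 2.3.3, numpy 2.4.6). The number of arrays limits the precision.

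Accessions were named through RefSeq (GRCh38.p14), without versions, for 18023 of 19228. An older RUNX2 accession was named through the study's supplementary gene list. The array design was annotated on hg18, so no gene coordinates are given beyond the promoter windows. The members and lists were chosen with earlier results of these data known. Named genes are all septin probes, RUNX2, and from each list the members past the 2-fold rule and the 2 highest and 2 lowest by their brightest kept probe. The other ovarian carcinoma markers, CDC42EP1, CDC42EP4, SEPTIN7P2, SEPTIN7P11 and the genes that bound the neighbour ranges are named outside this rule. They were chosen after their values were seen. Alternatives covered background, centring, flags, filters, source of the ratio, call rule, choice of probe and each hybridization alone. Septin protein and probe sequences were not used here.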

Additional observations from a re-analysis of the deposited data

How the results depend on the processing

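Each hybridization alone is a technical repeat, so neither shows biological spread. Of the 114 septin ratios recomputed from both hybridizations under 6 settings, 107 lay within 1 SD (over the 2 hybridizations) of the reported value. The other 7 lay on both SEPTIN9 probes, SEPTIN10 A_23_P43175 and SEPTIN6 A_24_P242204, and no called ratio reversed. With median centring SEPTIN9 A_23_P106973 gave 1.55 and SEPTIN10 A_23_P43175 gave -0.98. SEPTIN9 A_24_P147910 ran from 0.23 without background correction to 0.45 with the software's ratio. The software's ratio and the deposited table hold nearly the same values and both count among the 6 settings. Keeping the flagged spots is another of the 6 and hardly changed any septin ratio. The SD is each probe's own, so a probe whose hybridizations differ widely could hardly fall outside it. The count of 107 is therefore a weak measure of stability. With median centring the count of septin probes 2-fold lower fell from 1 to 0. Over all probes, 77 instead of 44 were then 2-fold higher and 124 instead of 142 were lower, a share of lower calls of 61.7% instead of 76.3%. With the software's log ratio 103 were higher and 253 lower, and with the ratios of the deposited table the counts were 103 and 251. Each hybridization alone gave 7 to 10 higher and 9 to 12 lower septin probes, 1 septin probe past 2-fold each way, a septin median of -0.13 to 0.0047, a RUNX2 ratio of -2.04 to -1.30, and 88 to 219 higher and 196 to 506 lower probes over the arrays. With hybridization 2 left out the counts were 88 and 506, and with hybridization 1 left out 219 and 196. The cause of these differences was not tested. For each hybridization alone, the shares of all kept probes by direction were not counted. No paired analysis was possible because the 2 hybridizations hold 1 pair of RNAs. Dim septin probes near background are limited by signal.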
